A study of Pimephales promelas with 16 samples.

Results

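Transcript levels were compared between ovary explants incubated with DHT and control explants, all from female Pimephales promelas (fathead minnow), 8 of the 16 one-colour arrays of the series. The comparison holds the 4 arrays labelled with the agent DHT (title numbers 1, 4, 5 and 6) and the 4 labelled control (title numbers 1, 3, 4 and 6). Both groups were ovary pieces kept in culture, and the labels give 12 h and a concentration of 1e-06 M for the treated explants. The labels do not say whether the control explants received the carrier. The age of the fish is not given. Nor do the labels tell if each replicate was another fish, and the p-values thus cover only the spread between these samples, which may be technical. The other 8 arrays of the series are of explants treated with flutamide or LIN. They enter through the filter on probes, through the shared estimate of the spread and where they are named.

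DHT commonly stands for dihydrotestosterone. This androgen binds the androgen receptor, a transcription factor that alters the transcription of its target genes. Unlike testosterone, dihydrotestosterone cannot be converted to an oestrogen by aromatase. In a fish ovary the follicle cells around the oocyte make androgens and, from them, oestrogens, and androgens act on follicle growth.

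Probes carry an identifier and the name of the contig or sequence they were designed on, and 0 of these names matched a gene in the RefSeq table used here. They therefore have no gene name here, no role can be given for any of them, and the tissue label could not be checked against marker genes. Levels are log2 of the scanner's processed signal relative to the array's 75th percentile, so 0 is the 75th percentile and 1 unit is a 2-fold difference. The scanner's flag for signal well above background had to be set on 3 or more arrays of at least 1 group. The flutamide and LIN groups counted too, so a probe could pass through them alone. This kept 13146 of 15208 probes. The flag was set on all 8 DHT and control arrays for 11392 of them. The array's 75th percentile was a signal of 921 to 2918 on the DHT arrays and of 1096 to 3418 on the control arrays. The flag was set for 81.2% to 87.0% of probes on the DHT arrays and for 81.4% to 86.6% on the control arrays. Precision is limited by how few arrays there are.

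The title number set the arrays apart more than the treatment did. DHT and control arrays of one number correlated over probes at r from 0.974 to 0.987, above every correlation between 2 DHT arrays (0.955 to 0.968) or between 2 control arrays (0.935 to 0.960). In the 6 arrays of the numbers that both groups share, 1, 4 and 6, the number held 75.1% of the variation of levels over 13108 probes without a missing value. Per degree of freedom the number held 37.5% and the remainder 6.96%, with the share between DHT and control between those. After the group means were taken out, arrays of the same number deviated together, with r = 0.66 for number 1, 0.70 for number 4 and 0.55 for number 6. The 13 pairs of a DHT and a control array with different numbers lay between -0.40 and 0.11. The arrays of number 4 lay on different slides, scanned on different days, and those of numbers 1 and 6 on 1 slide each. The numbers therefore pair the samples, although what a number marks is not in the labels. DHT 5 and control 3 have no partner.

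DHT against control, the effect of an androgen on the explants, gave no probe past the threshold. limma called 0 of 13146 probes at an adjusted p below 0.05 (0%). Before adjustment, 269 (2.05%) were below 0.05. Of those 101 were higher (0.768%) and 168 lower (1.28%) with DHT. That split depended on single arrays and on the processing. Without control 1 it turned to 226 higher and 142 lower, and without control 3 it was 48 higher and 183 lower. With all arrays it was 166 higher and 163 lower with median scaling, and 47 higher and 44 lower with normexp background correction. The fit of group means leaves the pairing out. With the title number as a block in a fit of all 16 arrays, 0 of 13146 probes were called again. Of these 13146, 912 had an unadjusted p below 0.05 with a fixed and 999 with a random block, near evenly split between higher and lower. The lowest limma adjusted p was 0.698 with the fixed block and 0.655 with the random one, against 1.00 when no block was used. The 95% interval of the difference lay wholly within a 2-fold change to either side for 7881 probes (59.9%) without a block and for 10764 (81.9%) with the random block. For the other probes a 2-fold difference was not outside the interval.

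Within the shared numbers the arrays were closer. Taking DHT minus control inside numbers 1, 4 and 6, limma again called 0 of 13146 probes (0%), while 2267 (17.2%) had an unadjusted p below 0.05. DHT values were higher for 620 (4.72%) and lower for 1647 (12.5%). The lowest limma adjusted p was 0.253. This fit has 6 arrays and 2 residual degrees of freedom. Without the block the same 6 arrays gave 330 probes at an unadjusted p below 0.05. The direction of the majority depended on how the signal was background-corrected and scaled. Lower probes made up 72.7% with the 75th percentile, 60.7% with quantile normalization and 63.9% in the authors' deposited table, but 46.5% with median scaling and 32.4% with normexp background correction. Centring on spike-in spots, RNA added in fixed amounts, shifted the within-number differences by -0.37 in the median and gave 99.2% lower. Under that centring 2880 of the 13146 probes were called, 20 higher and 2860 lower. It rests on 7 spike-in probes and moves each array by a single offset. Their mean log2 signal less the array's 75th percentile was 0.13, 0.73 and 0.15 on DHT arrays 1, 4 and 6. On control arrays 1, 4 and 6 it was -0.23, 0.47 and -0.35. Under normexp 7 of the 13146 probes were called, all higher.

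**Figure D1:**
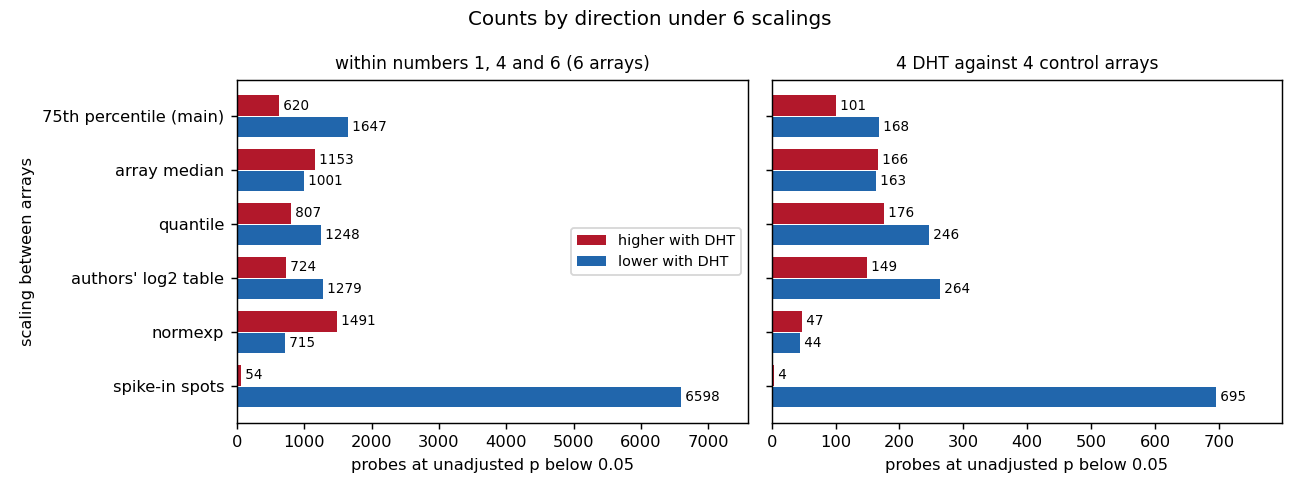
Number of probes at an unadjusted p below 0.05 (horizontal axis) under 6 processing settings (rows), for the comparison within numbers 1, 4 and 6 (left) and for 4 DHT against 4 control arrays (right). Normexp differs in background correction and input signal and keeps the 75th percentile. Red bars are probes higher and blue bars probes lower with DHT. Within numbers, lower probes outnumbered higher ones by 1647 to 620 with the 75th percentile, while higher ones outnumbered lower ones by 1491 to 715 with normexp.

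The differences of the 3 pairs were small for most probes. The middle 9 in 10 probes spanned -0.71 to 0.52 for number 1, -0.66 to 0.64 for number 4 and -0.68 to 0.71 for number 6. At least 2-fold differences were found for 207 higher and 315 lower probes in number 1, 219 and 222 in number 4, and 419 and 185 in number 6. DHT 5 minus control 3, which differ in number too, had 1459 higher and 986 lower, 18.7% of probes against 3.36% to 4.60% within a number. No test was made on single pairs.

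The pairs share no array, so their likeness can be described directly. Over all kept probes the differences of numbers 1 and 4 correlated at r = 0.22, of 1 and 6 at r = 0.16 and of 4 and 6 at r = 0.15. Over probes well above background on all 8 arrays these were 0.27, 0.24 and 0.33. All 3 differences had one sign for 2145 higher (16.4%) and 3779 lower (28.8%) of 13108 probes. Among the brightest of 5 equal groups of probes by mean level, numbers 1 and 4 reached r = 0.51, while 1 and 6 stood at 0.18 and 4 and 6 at 0.15. Probes are not independent replicates and share the array's labelling and scan, so these values are descriptions.

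**Figure D2:**
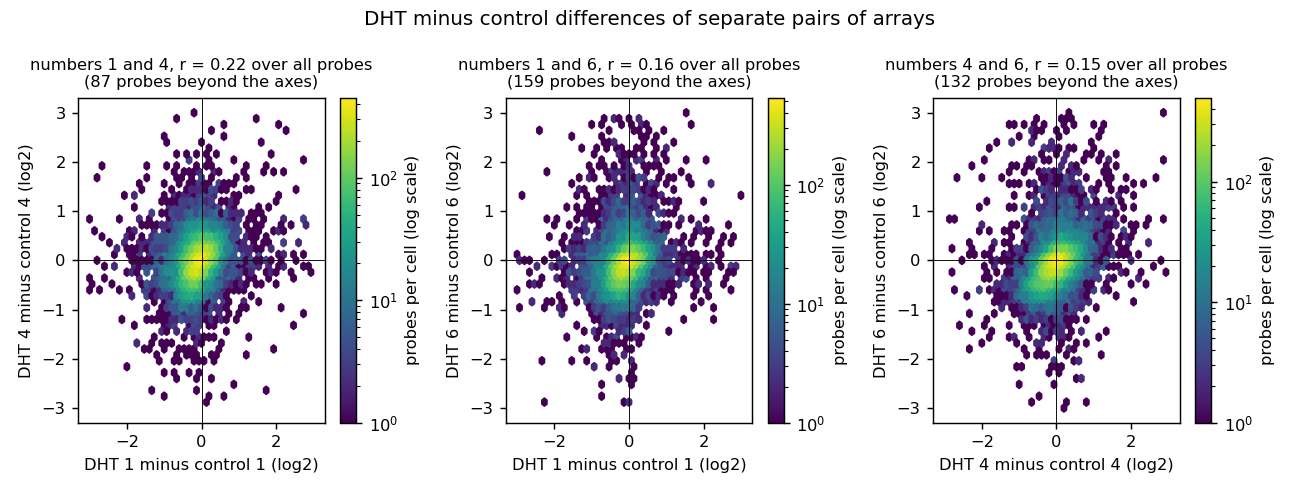
DHT minus control on the log2 scale for 1 title number against another, with the number of probes per cell in colour on a log scale. Probes beyond 3 on either axis are not drawn and are counted in each title. The clouds lean weakly along the rising diagonal, at r = 0.22, 0.16 and 0.15 over all probes.

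The same likeness was set beside other compounds, always between pairs that share neither an array nor a number. DHT minus control of one number correlated with flutamide minus control of another at r from 0.05 to 0.43 (5 values, median 0.13) and with LIN minus control at r from 0.01 to 0.32 (7 values, median 0.08). Both ranges contain the 3 values among the DHT pairs, but each upper end was a single value, of DHT number 4 with number 3. The next highest were 0.142 for flutamide and 0.153 for LIN. Among the DHT pairs, with no value set aside, r was 0.152, 0.156 and 0.215, so the lowest of them lay below the 0.153 for LIN. Against flutamide minus LIN, which holds no control array, r lay between -0.12 and 0.09 (8 values, median 0.00). All 4 control arrays stood in column 1 of their slide and all 4 flutamide arrays in column 3, and the part of the column in these values was not tested.

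The pairs also differed in where their arrays lay on the slides. DHT 1, DHT 5 and DHT 6 stood in column 2, while DHT 4, like the 4 control arrays, stood in column 1. In the dimmest of the 5 groups the median difference was -0.19 for number 1 and -0.15 for number 6, against -0.01 for number 4. In the next group it was -0.14 for number 1, -0.17 for number 6 and -0.03 for number 4. In the brightest group it was 0.01 for number 1, 0.01 for number 4 and 0.00 for number 6. The share of probes at an unadjusted p below 0.05 within numbers was 21.4% in the dimmest group (141 higher, 422 lower) and 23.5% in the next (116 higher, 503 lower). In the brightest group 164 were higher and 126 lower. With the slide column as a block over all 16 arrays, DHT minus control rested on DHT 4 against the 4 control arrays. DHT 1, DHT 5 and DHT 6 stood in a column without a control array and added nothing to that difference. That fit therefore sets 1 DHT array against the controls, and its count of probes is not read as an effect of DHT. Number 4 was also the only pair with its arrays on different slides and scan days, so these cannot be told apart from the column. For DHT 1, DHT 5 and DHT 6 the treatment cannot be told apart from the column, in dim and bright probes alike. The part of the column in the differences within numbers, and in those of 4 against 4 arrays, was not tested. This holds for the single probes below as well.

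**Figure D3:**
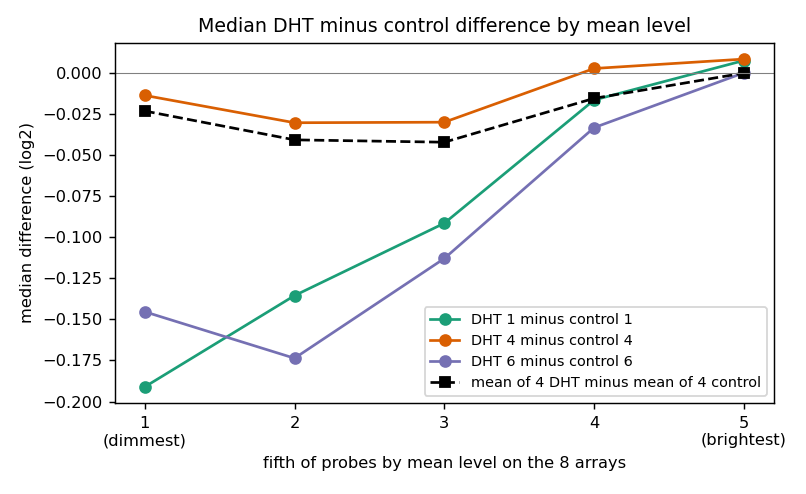
Median DHT minus control difference on the log2 scale in 5 equal groups of probes, from the dimmest to the brightest by mean level on the 8 arrays. Coloured lines are the pairs of numbers 1, 4 and 6, and the dashed line is the mean of 4 DHT minus the mean of 4 control arrays. Numbers 1 and 6 start at -0.19 and -0.15 in the dimmest group, number 4 at -0.01, and all 3 lie within 0.01 of 0 in the brightest.

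Single probes are described next, chosen by p among probes well above background, so their values are descriptions and none passed the adjustment. The values of the 4 DHT and the 4 control arrays did not overlap for 102 higher (0.776%) and 214 lower (1.63%) of the 13146 probes.

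UF_Ppr_AM_119600, for FJU_SB_30.150.C2, was among the non-overlapping probes with lower values. It stood at -4.26, -4.67, -4.44 and -4.63 on DHT arrays 1, 4, 5 and 6, against -3.09, -3.68, -2.74 and -3.25 on control arrays 1, 3, 4 and 6. Every DHT value was below every control value, and the 4 DHT values lay close together. The mean was -4.50 ± 0.19 with DHT and -3.19 ± 0.39 in control (SD, n = 4 each), a difference of -1.31 ± 0.32 (SE; limma adjusted p = 1.00). Within numbers 1, 4 and 6 the differences were -1.18, -1.92 and -1.39, on average -1.50 ± 0.18 (SE; limma adjusted p = 0.253). It averaged -3.35 ± 0.23 with flutamide and -4.67 ± 0.81 with LIN (SD, n = 4 each), so the flutamide arrays stood near the controls and the LIN arrays near DHT. Those comparisons use the same control arrays, and the differences between compounds were not tested for this probe. A second probe of the same sequence, UF_Ppr_AF_106746, averaged 3.30 ± 0.25 with DHT and 3.43 ± 0.21 in control (SD, n = 4 each), and its differences within numbers were -0.03, 0.02 and -0.01. The pair of probes for this sequence therefore disagreed, in level as well as in difference. Whether both measure the same transcript was not tested.

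Other pairs of probes that carry 1 sequence name were compared in their differences. The array has 710 probes marked AM in their identifier and 14498 marked AF, and the files do not say what the marks mean. Both kinds were kept for 329 sequences. The levels of the pair correlated at r = -0.31, with a median gap of 4.48, and the AF probe was the brighter for 246 sequences (74.8%). Whether the pair measures the same transcript was not tested. The DHT minus control differences of the pair correlated at r = 0.06 in the comparison of 4 with 4 and at r = -0.04 within numbers. Within numbers the pair had differences of one sign for 186 of 329 sequences (56.5%). An unadjusted p below 0.05 was found for 86 AM probes (26.1%) and 56 AF probes (17.0%), against 17.2% of all kept probes, and for both probes of 7 sequences (2.13%). The values of 1 sequence share the arrays and are given as descriptions.

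UF_Ppr_AF_117765, for gi_73642462, had the lowest p of the comparison. It stood at -6.03, -6.22, -5.69 and -5.91 on DHT arrays 1, 4, 5 and 6, against -5.35, -4.23, -3.88 and -4.10 on control arrays 1, 3, 4 and 6. Control 1 lay nearest to the DHT arrays, and the difference within number 1 was -0.68, against -2.34 within number 4 and -1.81 within number 6. Within numbers it averaged -1.61 ± 0.35 (SE; limma adjusted p = 0.253). With normexp the difference of the 4 against 4 arrays was -0.56, against -1.57 with the processed signal. This probe averaged -6.81 ± 0.55 with flutamide and -6.84 ± 0.37 with LIN (SD, n = 4 each). The means were -5.96 ± 0.22 with DHT and -4.39 ± 0.65 in control, so both other compounds lay further below the controls than DHT.

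Among non-overlapping probes with higher values, UF_Ppr_AF_101033, for FJU.1749.C1, was 1 of the 2 of lowest p. Its levels were 2.26, 2.95, 2.57 and 2.63 on DHT arrays 1, 4, 5 and 6, against 2.09, 2.13, 1.94 and 2.22 on control arrays 1, 3, 4 and 6. The lowest DHT value, of array 1, lay just above the highest control value, of array 6. The difference was 0.51 ± 0.17 (SE; limma adjusted p = 1.00), and within numbers 1, 4 and 6 it was 0.17, 1.00 and 0.41. Over the 4 against 4 arrays it was 0.10 with spike-in centring and 0.57 with normexp.

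UF_Ppr_AF_104909, for FJU.11200.C2, was the other such probe. It stood at -2.07, -1.47, -1.84 and -1.96 on DHT arrays 1, 4, 5 and 6, against -2.43, -2.63, -2.40 and -2.22 on control arrays 1, 3, 4 and 6. Within numbers the differences were 0.36, 0.93 and 0.26. For this probe too number 4 had the largest of the 3. Over the 4 against 4 arrays its difference was 0.59, against 0.18 with spike-in centring and 0.59 with normexp. The probe averaged -2.08 ± 0.18 with flutamide and -2.18 ± 0.16 with LIN (SD, n = 4 each). UF_Ppr_AF_101033 averaged 2.29 ± 0.23 with flutamide and 2.51 ± 0.13 with LIN. For both probes these lay between the means of the DHT and the control arrays.

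Within numbers the probe of lowest p among those well above background was UF_Ppr_AF_111085, for FJU.13915.C1. It stood at -0.19, 0.42, -0.34 and -2.72 on DHT arrays 1, 4, 5 and 6, against -2.28, -2.57, -2.40 and -4.77 on control arrays 1, 3, 4 and 6. Both arrays of number 6 were low, so the groups overlapped, with DHT 6 below controls 1, 3 and 4. Inside the numbers the differences were close together, at 2.09, 2.82 and 2.04, on average 2.32 ± 0.19 (SE), a 4.98-fold higher level (limma adjusted p = 0.253). DHT 5 and control 3, which are not in the within-number fit, differed by 2.23. The filter used both arrays, and the rules were chosen with earlier results of these data known. Over 4 DHT and 4 control arrays the difference was 2.30 ± 0.81 (SE; limma adjusted p = 1.00). Within numbers this probe passed the threshold in 3 of 14 alternatives. These were normexp (1.59, limma adjusted p = 0.0409), spike-in centring (1.94, limma adjusted p = 0.0447) and a trended robust prior (limma adjusted p = 0.0445), where it was the 1 probe called. Spike-in centring called 2880 probes, and the trended prior was added after the data were seen. The limma adjusted p was 0.279 with median scaling, 0.303 with quantile normalization, 0.304 in the authors' deposited table and 0.227 with normexp and the array median. UF_Ppr_AF_111085 averaged -1.59 ± 1.26 with flutamide and -1.15 ± 1.12 with LIN, against -0.71 ± 1.38 with DHT (SD, n = 4 each), and all 4 control arrays lay below these 3 means.

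UF_Ppr_AF_105401, for gi_72693498, had within-number differences of 1.16, 1.77 and 1.39, on average 1.44 ± 0.15 (SE; limma adjusted p = 0.253). Its levels were -2.79, -2.43, -2.99 and -3.91 on DHT arrays 1, 4, 5 and 6, against -3.95, -2.05, -4.20 and -5.30 on control arrays 1, 3, 4 and 6. Control 3 was the highest of all 8 arrays, so DHT 5 minus control 3 was -0.94, opposite in sign. The mean was -2.27 ± 0.79 with flutamide and -2.32 ± 1.56 with LIN, against -3.03 ± 0.63 with DHT and -3.88 ± 1.35 in control (SD, n = 4 each). This probe was also among the 7 called with normexp, at 1.08 (limma adjusted p = 0.0384), and among those called with spike-in centring, at 1.07 (limma adjusted p = 0.0447). It passed in these 2 of 14 alternatives only. Of the 7 called with normexp, DHT 5 minus control 3 was higher for 3, with a range from -1.69 to 2.23.

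**Figure D4:**
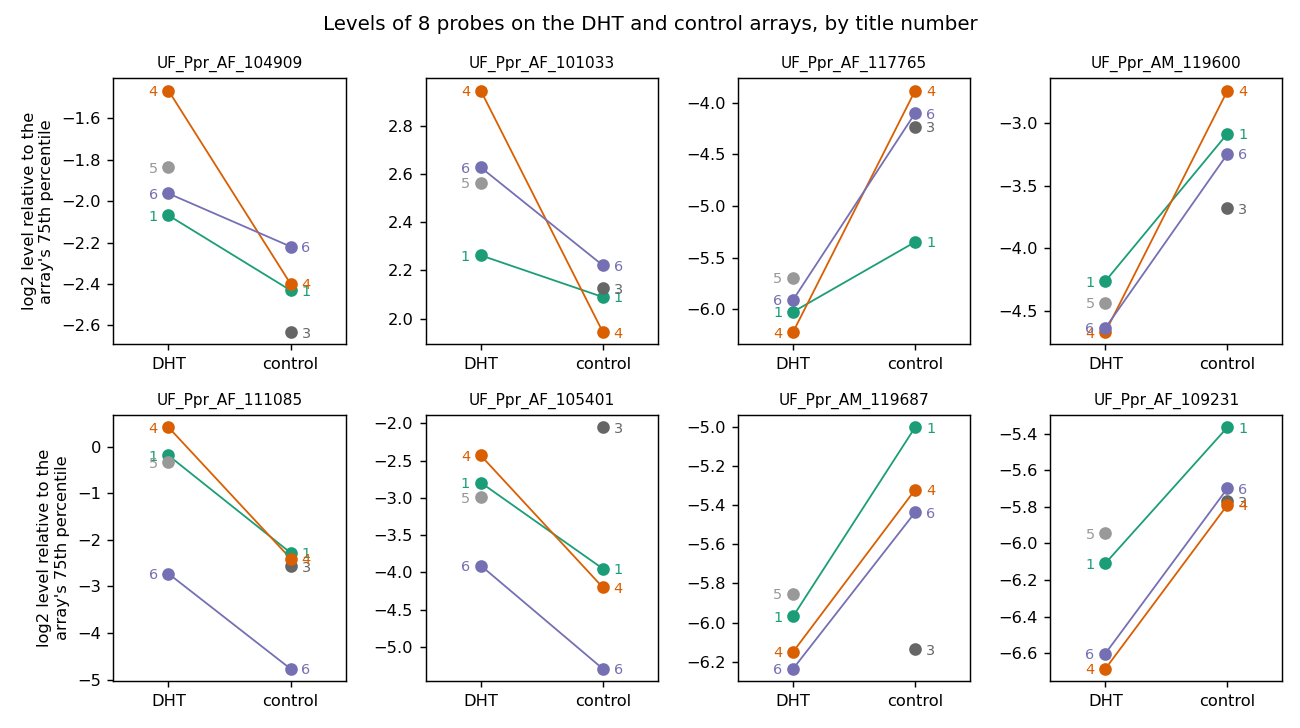
Log2 level relative to the array's 75th percentile (vertical axis, its own range in each panel) of 8 probes on the DHT arrays (left in each panel) and the control arrays (right). Points carry the title number, and lines join arrays of numbers 1, 4 and 6. In the upper row the groups do not overlap, while in UF_Ppr_AF_111085 both arrays of number 6 lie below the rest of their group.

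Lower within numbers with small spread were 2 dim probes. UF_Ppr_AM_119687, for FJU.9390.C2, stood at -5.97, -6.15, -5.85 and -6.24 on DHT arrays 1, 4, 5 and 6, against -5.00, -6.14, -5.32 and -5.44 on control arrays 1, 3, 4 and 6. Control 3 lay among the DHT arrays. The mean was -6.27 ± 0.34 with flutamide and -6.31 ± 0.30 with LIN, against -6.05 ± 0.17 with DHT and -5.47 ± 0.48 in control (SD, n = 4 each). The within-number differences were -0.97, -0.83 and -0.80 (mean -0.87 ± 0.09, SE; limma adjusted p = 0.253), but with normexp the mean was -0.0741 (limma adjusted p = 0.809). Its AF partner UF_Ppr_AF_106872 was brighter, at -1.50 ± 0.33 with DHT and -1.74 ± 0.36 in control (SD, n = 4 each). The partner had within-number differences of 0.04, 0.21 and 0.01.

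UF_Ppr_AF_109231, for FJU.12500.C1, stood at -6.11, -6.69, -5.95 and -6.60 on DHT arrays 1, 4, 5 and 6, against -5.36, -5.77, -5.79 and -5.70 on control arrays 1, 3, 4 and 6. All 4 DHT values were below all 4 control values. The within-number differences were -0.74, -0.90 and -0.90 (mean -0.85 ± 0.09, SE; limma adjusted p = 0.253), and DHT 5 minus control 3 was -0.18. With normexp the mean within numbers was -0.00582 (limma adjusted p = 0.986). The probe averaged -6.28 ± 0.36 with flutamide and -6.07 ± 0.30 with LIN, against -6.34 ± 0.36 with DHT and -5.66 ± 0.20 in control (SD, n = 4 each).

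Only 12 of 13108 probes had all 3 within-number differences at least 2-fold in one direction, 8 higher (0.0610%) and 4 lower (0.0305%). The 8 higher ones averaged 1.26 to 2.91 within numbers, 4 of them lay in the dimmest of the 5 level groups, 3 were well above background on all 8 arrays, and DHT 5 minus control 3 was higher for 3 of the 8. The 4 lower ones, named after their values were seen, were UF_Ppr_AM_119600, UF_Ppr_AF_107029 (FJU.8134.C2), UF_Ppr_AF_117085 (gi_72729175) and UF_Ppr_AF_109107 (FJU.156.C2). Their within-number differences averaged -1.50, -1.76, -2.67 and -2.10. The -2.67 of UF_Ppr_AF_117085 rested on number 6, where the difference was -4.87, against -1.39 in number 1 and -1.76 in number 4. It was -1.58 without number 6 and -3.32 without number 1. DHT 5 minus control 3 was negative for each, at -0.76, -0.23, -0.85 and -3.72. All but UF_Ppr_AM_119600 lay in the dimmest level group, and these 3 were well above background on 1, 1 and 0 DHT arrays. The averages of UF_Ppr_AF_107029 and UF_Ppr_AF_117085 thus rest mostly on DHT values not well above background. For UF_Ppr_AF_109107 the DHT values were raised to the dimmest signal measured well above background, which gave 2.56-fold lower with DHT over all 8 arrays. That is not a strict bound, since only 3 of its 4 control arrays were well above background. With normexp UF_Ppr_AF_107029 and UF_Ppr_AF_109107 turned to 0.13 and 0.0928, and UF_Ppr_AF_117085 to -0.32.

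The arrays that the within-number fit left out can be set beside the wider lists in the same way. Of the 617 probes higher within numbers at an unadjusted p below 0.05 that were measured on DHT 5 and control 3, 63.0% were higher in DHT 5, against 54.3% of all 13085 such probes. Of 1645 lower ones 54.6% were lower in DHT 5, against 45.7% of all. The median of DHT 5 minus control 3 was 0.18 for the higher and -0.05 for the lower list, against 0.06 over all. These are counts over probes of 1 further DHT and 1 further control array, with no test. Across probes the mean within-number difference correlated with DHT 5 minus control 3 at r = 0.13. That came from number 4, at r = 0.26, while number 1 stood at r = 0.0051 and number 6 at r = 0.029. Number 4 was closer still to flutamide 3 minus control 3, at r = 0.43, and to LIN 3 minus control 3, at r = 0.32. Its likeness to the left-out arrays was thus not particular to DHT. All of these differences hold control 3, and the part of that array in them was not tested.

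Probes found on one side only were few. For 17 of 13146 kept probes 0 DHT arrays but 3 or 4 control arrays were well above background, and the reverse held for 16. Such probes could pass the filter through the group where they were bright. With the dim group set to the dimmest signal measured well above background, the difference kept its direction for 17 of the 17 and 12 of the 16. That direction was largely set by the choice of probes, since values well above background seldom lie below that signal. No support is drawn from these counts. Each of the 17 had 3 control arrays well above background and 1 that was not, so none of the 17 has a strict bound. UF_Ppr_AF_102268, for FJU.255.C2, was at -8.60, -8.36, -8.97 and -9.20 on DHT arrays 1, 4, 5 and 6, against -5.18, -1.60, -2.43 and -9.09 on control arrays 1, 3, 4 and 6. Control 6 was as low as the DHT arrays and not above background. The mean came out 6.95-fold lower with DHT (limma adjusted p = 1.00), with DHT values below the dimmest signal measured well above background raised to it. This is not a strict bound, since control 6 entered at a value that was not above background. Control arrays 3, 4 and 6 each decided its size: it was 3.50-fold without control 3, 4.23-fold without control 4 and at least 19.7-fold without control 6. Only the last of these leaves out control 6. With normexp the difference of the 4 against 4 arrays was -1.56, against -4.20 with the processed signal. UF_Ppr_AF_106707, for FJU_SB_30.846.C3, was at -5.94, -6.97, -4.10 and -5.49 on DHT arrays 1, 4, 5 and 6, against -8.16, -9.02, -9.66 and -9.32 on control arrays 1, 3, 4 and 6. The groups did not overlap, and all 4 DHT arrays and 0 control arrays were well above background. By the processed signal the level was at least 3.11-fold higher with DHT (limma adjusted p = 1.00), and at least 2.19-fold without DHT 5. With normexp the difference of UF_Ppr_AF_106707 over the 4 against 4 arrays was 0.94, against 3.42 with the processed signal. It averaged -6.24 ± 2.92 with flutamide and -5.59 ± 3.12 with LIN (SD, n = 4 each).

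UF_Ppr_AF_110585, for FJU.10335.C2, had the lowest p of all kept probes within numbers and was well above background on 4 DHT and 0 control arrays. It stood at -6.70, -6.07, -7.18 and -6.44 on DHT arrays 1, 4, 5 and 6, against -7.97, -9.15, -7.49 and -7.58 on control arrays 1, 3, 4 and 6, without overlap. Since its control values lie at background, its p within numbers rests on differences that are not measured, and only a bound can be given. Over all 8 arrays the level by the processed signal was at least 1.58-fold higher with DHT, and at least 1.40-fold without DHT 4. With normexp the difference within numbers was 0.48.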

How the data were processed

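Per the labels' protocols, total RNA was isolated with TRIzol and hybridised in 1 colour, Cy3. The authors deposited Agilent Feature Extraction 10.7.1.1 files with a processed intensity per spot, per the file headers; their 75th percentiles differ between arrays, so they were not scaled to each other. An array's column on its slide is the last number of its place in the scanner output. They also deposited a table of log2 values, which followed the same array's log2 signal (r at least 0.9995). Its column medians lay between 7.62 and 7.65, so its scaling is between arrays, but its method and centring are not given in the sources used here.

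Levels were the processed signal on a log2 scale, less the array's 75th percentile over 15208 probes. Control spots and 106 outlier probe spots on the 8 arrays were left out, and 0 probes were saturated. limma 3.58.1 in R 4.3.3 gave two-sided moderated tests with Benjamini-Hochberg adjustment over 13146 probes, called at 0.05: group means over all 16 arrays, and, for numbers 1, 4 and 6, the number as a block over 6 arrays. The scripts were tested on simulated data. Same-numbered arrays deviated together in all 3 pairs (r from 0.55 to 0.70), so the title numbers pair the samples.

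Named probes were the 2 of lowest p per direction among non-overlapping probes well above background, the same within numbers with 3 differences of one sign, the lowest p of each comparison and the largest bound per direction. The probes and rules were chosen with earlier results of these data known. The 11 gene lists had 0 measured members. Normexp (offset 50) used median spot intensities, since the files hold no mean.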

Additional observations from a re-analysis of the deposited data

Results flagged for a closer look

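Of 32 groups of 4 values examined for 1 array far from the rest (16 measures, DHT and control), 1 stood out, and chance gives about 1 in 20. For UF_Ppr_AF_111085, control 6 stood at -4.77, while the other control arrays lay between -2.57 and -2.28. DHT 6, its partner by number, was also the lowest of its group.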

How the results depend on the processing

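DHT against control kept 0 calls under all 25 alternatives tried. Its 269 probes at an unadjusted p below 0.05 became 412 with the 8 arrays alone, 422 with quantile normalization, 699 with spike-in centring (4 higher, 695 lower), 91 with normexp (48.4% lower) and 413 in the authors' deposited table. Median scaling gave 49.5% lower, against 62.5% in the main setting. With the replicate block there were 912 (fixed) and 999 (random), with the slide column as a block 539, on slide 1 alone 153 and on slide 3 alone 421. The fit with the slide column rests on DHT 4 alone against the control arrays, and slide 1 holds control 1 only. The counts from these fits are therefore not read as effects of DHT. Leaving out 1 array gave 138 (without DHT 4) to 406 (without DHT 1), with a majority higher only without control 1.

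Within numbers, the 2267 at an unadjusted p below 0.05 became 330 without the replicate block, 912 with the replicate block over all 16 arrays and 6652 with spike-in centring. Leaving out 1 number gave 1178 (without number 4) to 1734 (without number 1), and 1294 without number 6. Calls numbered 2880 with spike-in centring, 7 with normexp, 1 with the trended robust prior and 0 otherwise. The trended prior, and normexp with the array median (0 calls), were added after the data were seen. The 12 probes with 3 differences of at least 2-fold became 19 with quantile normalization, 52 with spike-in centring (4 higher, 48 lower) and 2 with normexp. Under normexp UF_Ppr_AF_107029 and UF_Ppr_AF_109107 turned to 0.13 and 0.0928, and with the array median to 0.12 and 0.0806. The cause was not tested.

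The pair correlations (1 and 4, 1 and 6, 4 and 6) were 0.12, 0.12 and 0.11 with no filter and 0.27, 0.24 and 0.33 over probes well above background on all 8 arrays. For 1 and 4, normexp gave 0.30. By 5 equal groups of level, chosen after the data were seen, 1 and 4 ran 0.13, 0.27, 0.28, 0.35 and 0.51 from dim to bright. In group 3, 1 and 6 gave 0.23 and 4 and 6 gave 0.19, and in group 4, 4 and 6 gave 0.12. Centring by level left all 3 near their main values. Median differences moved to 0.18 in group 1 (dimmest) under normexp and to 0.0432 in group 5 under median scaling. In group 4 the median was -0.0156 in the main setting, 0.0272 when scaled to the median, -0.00733 by quantile normalization, 0.0113 under normexp and -0.0336 in the authors' deposited table.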
